A study of Mus musculus with 24 samples.

Results

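The genes described here encode 9 enhancer coactivators and chromatin remodelers: the acetyltransferases Ep300 and Crebbp, the Mediator subunits Med1 and Med12, the BAF subunits Smarca4, Arid1a, Smarcc1 and Smarcb1, and the remodeler Chd7. They were chosen by symbol, and all 9 were found among the 16617 genes of the deposited table. The study compared 4 mouse embryonic stem cell lines in 2 culture states: wild type (WT), a line without MLL3 whose MLL4 alleles are floxed and still present (MLL3KO_MLL4fl, here the floxed line), a line without MLL3 and MLL4 (MLL3KO_MLL4KO, the knockout line), and a line in which MLL3 and MLL4 are catalytic-dead (MLL3CD_MLL4CD). The floxed line is thus the control for loss of MLL4, and it shares the MLL3 deletion with the knockout line. Naive cells were compared with formative cells collected 63 hours after withdrawal of LIF and the 2 inhibitors (LIF2i). The labels name the R1 line for WT and catalytic-dead cells and no parental line for the others, and each genotype is 1 line, so effects of genotype and of line cannot be told apart. The 24 samples in the labels are 3 per line and state, cultured and prepared independently per the design text.

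MLL3 (gene Kmt2c) and MLL4 (gene Kmt2d) place monomethylation on histone H3 lysine 4 at enhancers and form large complexes there. p300 and CBP, the products of Ep300 and Crebbp, acetylate histone H3 lysine 27 at active enhancers, Mediator links enhancer-bound factors to RNA polymerase II, and BAF complexes slide or evict nucleosomes so that enhancers become accessible. CHD7 is an ATP-dependent remodeler of the chromodomain family that is found at enhancers of embryonic stem cells. All of these proteins are known as partners or neighbours of MLL3 and MLL4 on enhancer chromatin. The measurements below are of their mRNAs and not of the proteins or of their binding.

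Chd7 was the member whose mRNA moved most. It rose from naive to formative cells in each of the 4 lines, by 0.79 to 1.80 on the log2 scale. Arid1a rose in WT and knockout cells and stood lower in formative floxed cells than in formative WT or knockout cells. Med1 and Crebbp had the same low point in formative floxed cells, while Smarca4, Smarcb1 and Med12 passed the test in none of the 14 comparisons made. Apart from Med12, the highest and the lowest of the 8 group levels lay 1.33-fold (Smarca4) to 3.52-fold (Chd7) apart.

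The deposited table holds 1 value per group, the authors' average of log2 CPM (each count divided by its library's total, on a common scale) over the libraries of that group. Whole counts of 23 single libraries, of 4808564 to 15425959 counts each, were worked back from these averages where only 1 set of whole counts fits them. Libraries are called a, b and c by falling depth and cannot be matched to sample names. The naive WT average holds 2 libraries. The formative knockout average also held 1 library of the formative catalytic-dead group, which was taken out, so the values given differ from the deposited ones. For Med1, Chd7 and the 4 BAF genes that library's own value was not recovered and the formative catalytic-dead average stood in for it. In fits to library values of the first search alone, which was the test planned, only Med12 could be tested in every comparison, and Chd7 also in the 4 comparisons of naive cells. No member passed an adjusted p of 0.05 there in any of the 14 comparisons, and at an unadjusted p of 0.05 only Med12 did so, in naive floxed against naive WT cells (1.49 on the log2 scale, limma adjusted p = 0.256). Of all genes in those fits, 31.8%, 28.7%, 31.4% and 32.3% were called in the WT, floxed, knockout and catalytic-dead transitions. The comparisons of knockout with floxed, catalytic-dead with WT and floxed with WT called 16.8%, 12.1% and 3.84% in naive and 18.2%, 8.41% and 8.47% in formative cells. The differences of transitions called 8.23% (knockout minus floxed) and 3.8% (catalytic-dead minus WT), and the differences of genotype effects 6.38% in naive and 13.6% in formative cells. All other tests below come from a limma fit added after the data were seen, in which a second search supplied more library values and the group averages entered where no library value was known. Their adjusted p-values (Benjamini-Hochberg over 16395 genes, threshold 0.05) therefore borrow the spread of other genes: Ep300 and Med12 have library values in all 8 groups, Crebbp in 6, Chd7 in 4, Med1 in 2, and Arid1a, Smarca4, Smarcc1 and Smarcb1 only in naive WT cells. Outside naive WT cells, all library values of Ep300, Crebbp and Med1 come from the second search. That search accepts sets of counts more likely to fit by chance, so these single values are less certain.

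**Figure D1:**
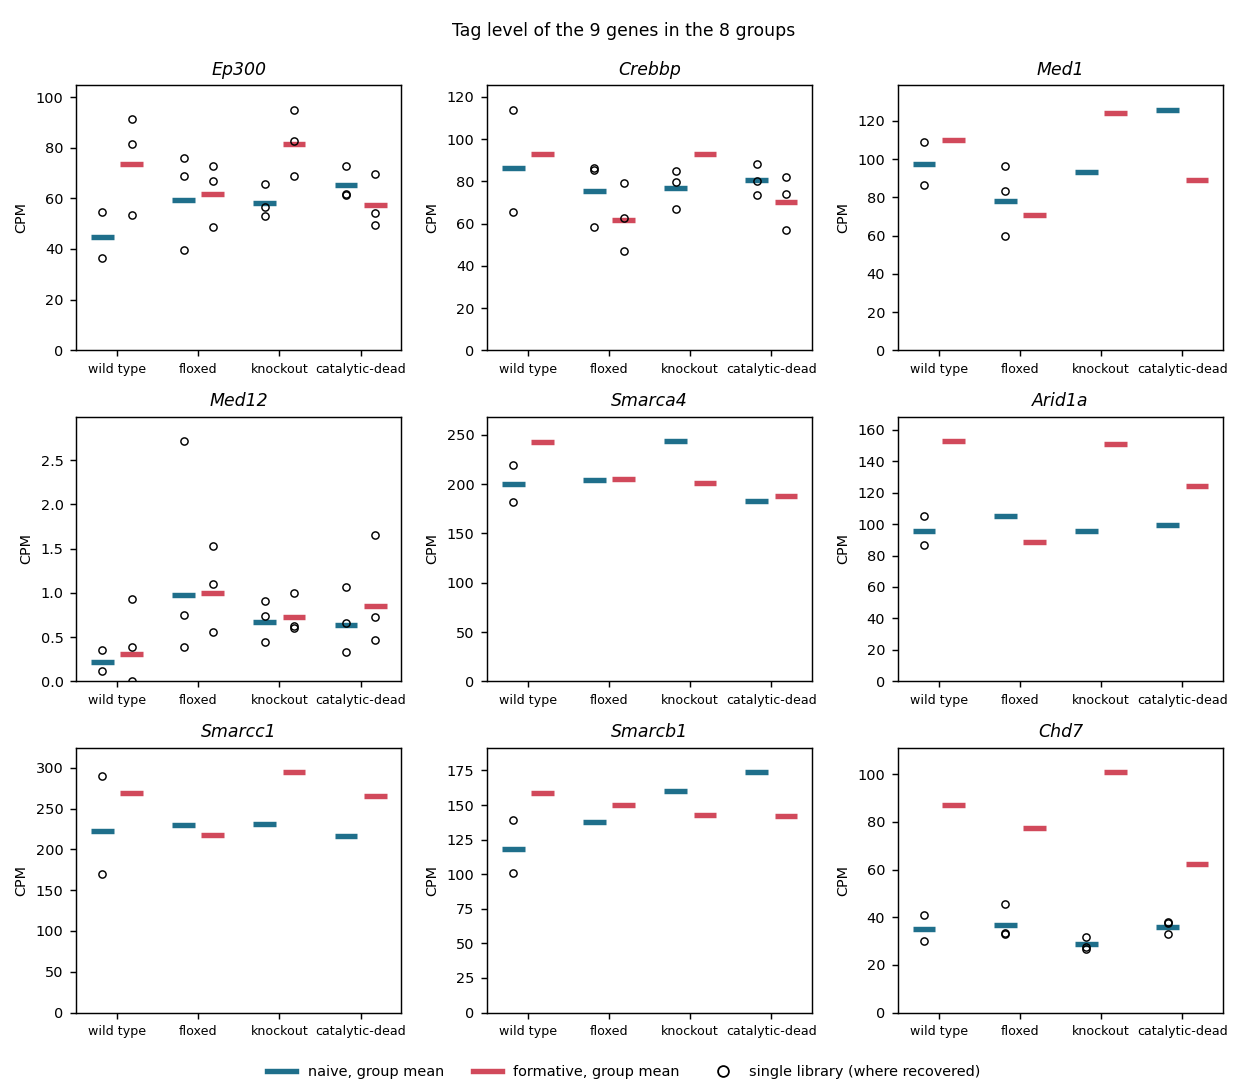
CPM of each member by line (horizontal axis) and state, on axes that start at 0, with short horizontal lines for the group averages and open circles for single libraries where they were recovered. Chd7 separates the states in every line, Arid1a is low in formative floxed cells, and Med12 stays near or below 1 CPM on average.

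The markers fixed for the 2 states fitted the labels. Of 10 naive markers, 9 or 10 were lower in formative cells of each line, and of 11 formative markers, 10 or 11 were higher, with naive marker sums of 2050 to 2570 CPM in naive groups and 375 to 624 CPM in formative groups. Pou5f1, a defining pluripotency gene, was listed at only 5.38 to 9.33 CPM in the 8 groups, whereas Nanog reached 420 CPM in naive WT cells. The summed level of fibroblast markers, of which 5 of 10 are in the table and none at 0 in any group, was 2.18 to 6.16 CPM in naive and 9.16 to 26.8 CPM in formative groups, and their part in the results was not tested. Of the targeted genes, Kmt2d stood at 17.4 CPM in naive knockout and 28.6 CPM in naive floxed cells, a log2 difference of -0.71 (limma adjusted p = 0.00748). Kmt2c stood at 21.8 and 23.2 CPM in these groups, which both lack MLL3, and at 48.6 CPM in naive WT and 67.2 CPM in naive catalytic-dead cells. The assay reads transcript 3′ ends, which need not lie in a deleted or altered part, so these values do not test the deletions or the catalytic changes.

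Ep300 (chr15:81585351-81652077, plus strand, GRCm38) encodes the acetyltransferase p300. Its level in WT cells was 54.7 and 36.4 CPM in the 2 naive libraries and 91.5, 53.5 and 81.6 CPM in the 3 formative libraries. The states overlapped at 1 library each, and the log2 difference of 0.72 (SE 0.28, 95% interval 0.14 to 1.3) did not pass the test (limma adjusted p = 0.0538). This call turned on single libraries and on the processing. The difference was 0.43 without naive WT library b, which leaves 1 naive WT library, and 0.95 (adjusted p = 0.00948) without formative WT library b. With all libraries kept, the same 0.72 passed without weights (adjusted p = 0.0302) and without the second search (adjusted p = 0.0303).

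In knockout cells Ep300 stood at 65.8, 53.2 and 56.4 CPM in naive libraries and at 95.1, 68.7 and 82.8 CPM in formative libraries. In these second-search values every formative library lay above every naive library, and the rise of 0.48 (SE 0.17) passed the test (limma adjusted p = 0.0209). The call was lost, with differences of 0.37 to 0.47, without any of naive knockout libraries b and c and formative knockout libraries a and c (adjusted p = 0.0599 to 0.135). With the shared library left in the average the rise was 0.34 (adjusted p = 0.123).

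Ep300 showed no such separation in the other lines. The floxed libraries read 76, 39.7 and 68.9 CPM in naive cells and 72.8, 67.0 and 48.5 CPM in formative cells, a log2 difference of 0.06 (95% interval -0.42 to 0.55). The catalytic-dead libraries read 61.6, 61.5 and 72.8 CPM in naive cells and 69.8, 49.5 and 54.3 CPM in formative cells, a difference of -0.18 (-0.58 to 0.21). In both lines the states overlapped. The order of the 8 averages ran from naive WT (44.6 CPM) to formative knockout cells (81.5 CPM), and the widest gap between neighbours, 0.36 on the log2 scale, lay between naive WT and formative catalytic-dead cells (57.2 CPM).

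Crebbp (chr16:4081328-4213997, minus strand) encodes CBP, the paralog of p300. Its naive averages lay between 75.6 CPM in floxed and 86.4 CPM in WT cells, and the naive libraries of all lines overlapped, from 58.6 to 114 CPM. Formative averages were 92.7 CPM in WT and 92.7 CPM in knockout cells, for which no library value was recovered. Formative floxed libraries held 79.0, 62.6 and 47.2 CPM, and formative catalytic-dead libraries 81.9, 56.8 and 73.9 CPM. All 6 of these libraries lay below the 2 formative averages of WT and knockout cells.

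Crebbp passed the test in 2 comparisons of formative cells that share the floxed group: it was lower in floxed than in WT cells by a log2 difference of -0.59 (SE 0.19, limma adjusted p = 0.0336) and higher in knockout than in floxed cells by 0.59 (SE 0.17, adjusted p = 0.0112). Floxed library c, the lowest of the group, carried much of both: without it the differences were -0.40 (adjusted p = 0.212) and 0.40 (adjusted p = 0.123). Without floxed library b the first was -0.60 (adjusted p = 0.0823). No transition from naive to formative cells passed for Crebbp, with differences from -0.29 (floxed, 95% interval -0.76 to 0.17) to 0.27 (knockout, -0.04 to 0.59). The ratio of Ep300 to Crebbp lay between 0.516 in naive WT cells and 1.0 in formative floxed cells. Ratios between genes here are of transcript-end counts, which are not divided by transcript length because each mRNA gives tags from its 3′ end only.

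Med1 (chr11:98152154-98193293, minus strand) encodes the Mediator subunit that nuclear receptors bind. Library values were recovered for naive WT (86.7 and 109 CPM) and naive floxed cells (96.2, 59.6 and 83.5 CPM), and these overlapped. The averages were 97.3 CPM in naive and 110 CPM in formative WT cells, 78.3 and 70.8 CPM in floxed, 93.5 and 124 CPM in knockout, and 126 and 89.3 CPM in catalytic-dead cells. Formative floxed cells had the lowest average, and the highest were in naive catalytic-dead and formative knockout cells.

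From naive to formative cells, Med1 rose in the knockout line (0.41, SE 0.12, limma adjusted p = 0.0125) and fell in the catalytic-dead line (-0.50, SE 0.14, adjusted p = 0.00773). The rise in knockout cells was 0.25 (adjusted p = 0.124) when libraries were scaled by size factors and 0.29 (adjusted p = 0.0642) with the shared library left in. The direct test of whether the transition differed, knockout minus floxed, gave 0.55 (95% interval 0.09 to 1.01) and did not pass. Among formative cells, Med1 was lower in floxed than in WT cells (-0.64, SE 0.15, adjusted p = 0.00704) and higher in knockout than in floxed cells (0.81, SE 0.13, adjusted p = 0.000179). Without weights the fall in catalytic-dead cells (adjusted p = 0.0651) and the difference of floxed from WT cells (adjusted p = 0.0524) did not pass, at the same size.

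Med12 (chrX:101274030-101297465, plus strand) encodes a subunit of the kinase module of Mediator. It was at the edge of detection, with 0 to 23 counts in a library. WT libraries held 0.351 and 0.113 CPM in naive cells and 0.936, 0.392 and 0 CPM in formative cells. Floxed libraries held 0.745, 0.384 and 2.72 CPM in naive cells and 1.53, 1.1 and 0.560 CPM in formative cells. Libraries of the knockout line (0.444 to 0.999 CPM) and of the catalytic-dead line (0.335 to 1.65 CPM) overlapped those of the floxed line. In naive cells each floxed library lay above both WT libraries, by little at these counts, and in formative cells they overlapped. The differences of floxed from WT, 1.49 in naive cells (95% interval 0.15 to 2.82) and 1.21 in formative cells (-0.07 to 2.49), did not pass the test.

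The low Med12 values have to be read with its annotation. In GENCODE vM21 the last 300 bases of the Med12 transcript are also exon of Gm21986 (chrX:101295839-101321348), a processed transcript on the same strand that has no row in the table. How tags in a shared exon were counted is not known here, and the part of this overlap in the low level was not tested. Med12l, the paralog of Med12, stood at 1.81 to 3.44 CPM and passed the test in none of the 14 comparisons. Its own 3′ end overlaps Igsf10 on the opposite strand.

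The 4 BAF genes cover the motor and the scaffold of the complex: Smarca4 encodes the ATPase BRG1, Arid1a the large DNA-binding subunit of the canonical BAF form, Smarcc1 the scaffold BAF155 and Smarcb1 the core subunit BAF47. Promoter entries in the RefSeq table (GRCm38.p6, 250 bases before to 50 after the start) were found for 8 of the 9 members, with 2 for Arid1a, and none for Chd7. All 9 entries hold the GC box GGGCGG on at least 1 strand, against 35.7% of 32851 promoters in the table, and they hold 22 to 49 CG dinucleotides, against a median of 7. The stretches before the start are shown for Arid1a and Smarcc1, whose deposited group values ran most closely together, and for Smarca4, which did not follow them. They are written in the direction of the gene with GC boxes (GGGCGG or its reverse complement CCGCCC) in capitals. The Arid1a stretch is chr4:133756770-133757019 on the minus strand, the Smarcc1 stretch chr9:110131774-110131979 on the plus strand, which leaves out bases that are exon of any transcript and lies inside the longer GENCODE gene, and the Smarca4 stretch chr9:21615919-21616168 on the plus strand.
Arid1a: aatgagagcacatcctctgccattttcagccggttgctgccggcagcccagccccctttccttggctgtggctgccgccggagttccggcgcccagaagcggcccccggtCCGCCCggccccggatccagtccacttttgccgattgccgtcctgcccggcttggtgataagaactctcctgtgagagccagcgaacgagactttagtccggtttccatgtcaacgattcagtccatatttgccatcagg
Smarcc1: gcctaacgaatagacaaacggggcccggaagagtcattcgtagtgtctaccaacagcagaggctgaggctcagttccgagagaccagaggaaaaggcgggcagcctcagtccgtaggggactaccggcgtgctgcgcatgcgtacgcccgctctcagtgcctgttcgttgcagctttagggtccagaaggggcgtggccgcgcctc
Smarca4: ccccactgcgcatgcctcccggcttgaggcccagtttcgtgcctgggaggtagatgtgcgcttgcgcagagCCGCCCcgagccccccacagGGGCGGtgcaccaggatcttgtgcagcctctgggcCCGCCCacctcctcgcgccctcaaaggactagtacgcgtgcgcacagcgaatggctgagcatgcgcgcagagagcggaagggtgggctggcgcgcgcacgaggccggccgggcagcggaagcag
In these letters Arid1a has 1 GC box, Smarcc1 none in the shorter stretch shown, and Smarca4 3. The other Arid1a entry, chr4:133753986-133754235, has 7 in the stretch before its start, so the number depends on the start taken. A match describes the letters and is not evidence that a factor binds there.

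Arid1a (chr4:133679008-133756769, minus strand) changed most among the 4. The naive WT libraries read 86.9 and 105 CPM, and naive averages of the 4 lines stood close together, from 95.3 CPM in WT to 105 CPM in floxed cells. Formative averages were 153 CPM in WT, 88.3 CPM in floxed, 151 CPM in knockout and 124 CPM in catalytic-dead cells. Both naive WT libraries lay below the formative WT average, and formative floxed cells were the lowest of all 8 groups.

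Arid1a rose from naive to formative cells in WT (0.69, SE 0.21, limma adjusted p = 0.0189) and knockout cells (0.65, SE 0.12, adjusted p = 0.000236). Values that did not pass were -0.25 in floxed cells (95% interval -0.60 to 0.10) and 0.32 in catalytic-dead cells (0.04 to 0.60, adjusted p = 0.0716). With size factors the WT rise was 0.57 (adjusted p = 0.0502). The transition in knockout cells exceeded that in floxed cells by 0.90 (SE 0.20, adjusted p = 0.00662). Among formative cells, Arid1a was lower in floxed than in WT cells (-0.80, SE 0.14, adjusted p = 0.000982) and higher in knockout than in floxed cells (0.77, SE 0.12, adjusted p = 0.000212), 2 comparisons that share the floxed group.

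Smarcc1 (chr9:110117708-110240178, plus strand) gave 290 and 170 CPM in the naive WT libraries, a gap wider than the range of all 8 averages, which ran from 216 CPM in naive catalytic-dead to 295 CPM in formative knockout cells. It rose in the knockout transition by 0.36 (SE 0.14, limma adjusted p = 0.0493) and was higher in knockout than in floxed formative cells by 0.44 (SE 0.14, adjusted p = 0.0359). Both calls were near the threshold: with size factors they were 0.20 (adjusted p = 0.288) and 0.37 (adjusted p = 0.0787), and with the shared library left in they were 0.32 (adjusted p = 0.0674) and 0.40 (adjusted p = 0.0673). Across the 8 averages as deposited, with the shared library left in, Smarcc1 followed Arid1a (Pearson r = 0.93 on the log2 scale, n = 8 groups). This is given as a description because the groups share lines and the averages share depth.

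Smarca4 (chr9:21616169-21704230, plus strand) read 219 and 182 CPM in the naive WT libraries. Its averages were 200 CPM in naive and 243 CPM in formative WT cells, 204 and 205 CPM in floxed, 244 and 201 CPM in knockout, and 183 and 188 CPM in catalytic-dead cells. The knockout line alone had a lower formative than naive average, and the difference of -0.28 (95% interval -0.54 to -0.02) did not pass (limma adjusted p = 0.0795). It did pass with size factors (-0.44, adjusted p = 0.00833) and with the shared library left in (-0.30, adjusted p = 0.0459). Knockout and floxed formative cells differed in Smarca4 by -0.03 (-0.30 to 0.25).

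Smarcb1 (chr10:75896769-75921617, minus strand) read 101 and 139 CPM in the naive WT libraries. Its averages were 118 CPM in naive and 159 CPM in formative WT cells, 138 and 150 CPM in floxed, 160 and 143 CPM in knockout, and 174 and 142 CPM in catalytic-dead cells. The largest difference between lines was that of naive catalytic-dead from naive WT cells, 0.55 (95% interval 0.11 to 1.0), which did not pass (limma adjusted p = 0.0932). In the knockout transition Smarcb1 gave -0.16 (-0.42 to 0.10), and with size factors -0.32 (adjusted p = 0.0485).

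Chd7 (chr4:8690406-8867659, plus strand) was low in every naive library. The libraries held 41.1 and 30.0 CPM in WT, 45.7, 32.9 and 33.2 CPM in floxed, 26.8, 27.6 and 31.9 CPM in knockout, and 38.0, 32.9 and 37.4 CPM in catalytic-dead cells. Formative averages were 87.0 CPM in WT, 77.6 CPM in floxed, 101 CPM in knockout and 62.5 CPM in catalytic-dead cells. All 11 naive libraries lay below all 4 formative averages, and the widest gap in the order of averages, 0.76 on the log2 scale, separated naive floxed from formative catalytic-dead cells.

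The rise of Chd7 was 1.31 in WT (SE 0.21, limma adjusted p = 3.14e-05), 1.07 in floxed (SE 0.18, adjusted p = 5.75e-05), 1.80 in knockout (SE 0.13, adjusted p = 1.1e-10) and 0.79 in catalytic-dead cells (SE 0.15, adjusted p = 0.000161). The rise was larger in knockout than in floxed cells by 0.73 (SE 0.22, adjusted p = 0.0289). That call was lost without naive floxed library a (0.58, adjusted p = 0.155) or c (0.81, adjusted p = 0.0507), without naive knockout library a (0.68, adjusted p = 0.0637) or b (0.71, adjusted p = 0.0563), and with the shared library left in (0.56, adjusted p = 0.13). The rise in catalytic-dead cells differed from that in WT cells by -0.51 (95% interval -1.04 to 0.01), which did not pass.

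Among formative cells Chd7 was lower in catalytic-dead than in WT cells by a log2 difference of -0.48 (SE 0.14, limma adjusted p = 0.0278). Without the second search this had an adjusted p of 0.0578, at the same difference. Chd7 has no value from that search, so only what the fit takes from other genes changed. Chd7 was higher in formative knockout than in formative floxed cells by 0.38 (SE 0.12, adjusted p = 0.0225), but with the shared library left in the difference was 0.20 (adjusted p = 0.249). No Chd7 difference between lines passed in naive cells, the widest being -0.36 for knockout against floxed (-0.74 to 0.02, adjusted p = 0.201).

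The members' counts from naive to formative cells are read against those over all genes. In WT cells 2 of the 9 members rose and 0 fell, where 30.8% of 16395 genes passed in either direction and 19.5% rose. In floxed cells 1 rose, against 33.3% of all genes in either direction and 20.8% that rose. In knockout cells 5 rose (Chd7, Arid1a, Ep300, Med1 and Smarcc1), against 38.5% and 27.2%. In catalytic-dead cells Chd7 rose and Med1 fell, against 36.3% in either direction, 20.2% that rose and 16% that fell. The median difference of the members was 0.30 in WT, 0.01 in floxed, 0.36 in knockout and 0.04 in catalytic-dead cells, beside 0.15, 0.14, 0.19 and 0.06 over all genes. Rescaling by size factors takes 0.12 from each WT difference and 0.16 from each knockout difference. In the knockout transition only Chd7 and Arid1a then rose, and Smarca4 and Smarcb1 fell. With the shared library left in, Chd7 and Arid1a rose and Smarca4 fell.

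**Figure D2:**
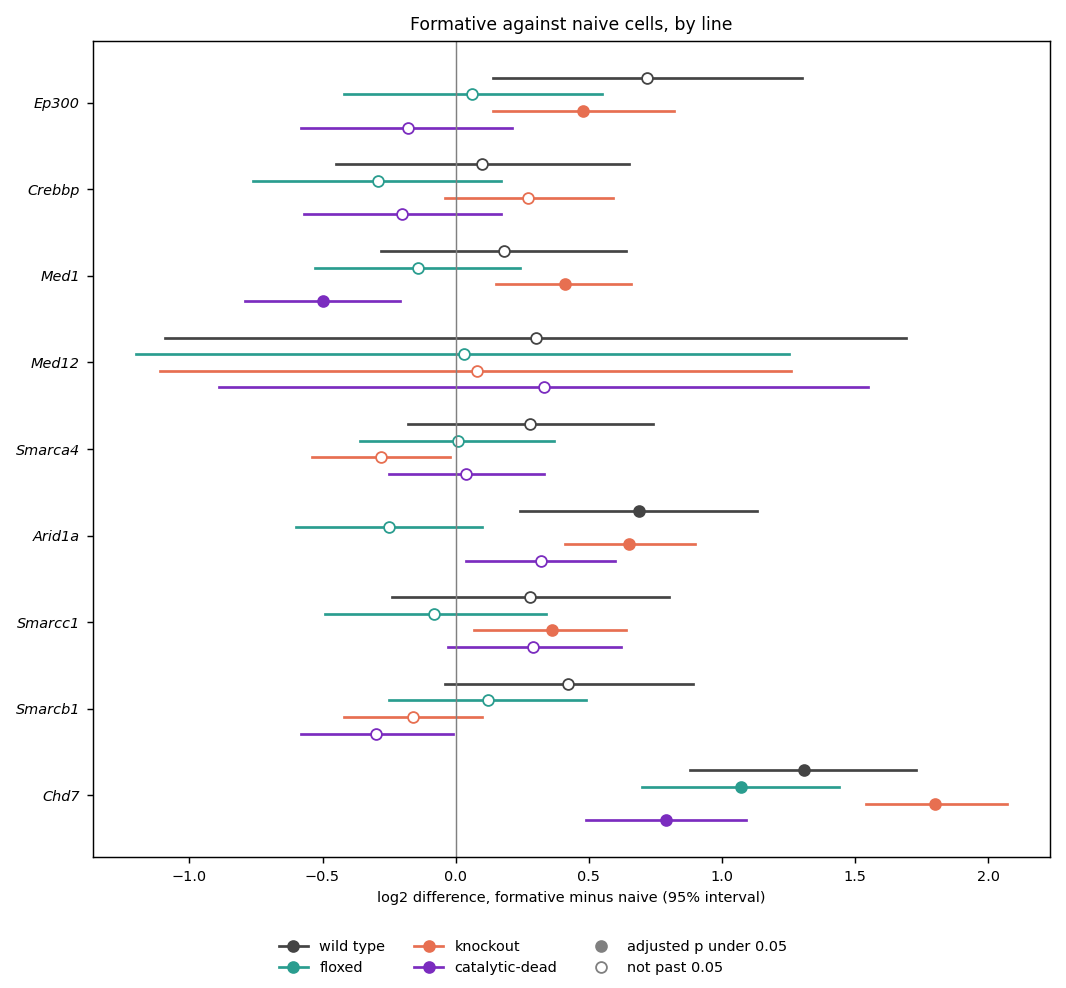
Log2 difference of formative from naive cells for each member in the 4 lines, with 95% intervals, and filled points where the adjusted p is below 0.05. Chd7 lies right of 0 in every line, and Arid1a is filled in WT and knockout cells.

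All calls on members between lines were in formative cells. In naive cells 0 of 9 members passed for knockout against floxed (18.1% of all genes passed), for catalytic-dead against WT (13% of all genes) and for floxed against WT (3.49% of all genes). By the same limma fit 0, 1 and 1 members had an unadjusted p under 0.05 there, and the fits to libraries alone called 0 as well. In formative cells 5 of 9 were higher in knockout than in floxed cells (Med1, Arid1a, Crebbp, Smarcc1 and Chd7) and 0 lower, where 25.8% of all genes passed and 15.9% were higher. Formative floxed cells were lower than WT in 3 (Arid1a, Med1 and Crebbp) and higher in 0, where 13.9% of all genes passed and 7.31% were lower. Catalytic-dead cells were lower than WT in 1, Chd7, where 13.5% of all genes passed and 6.2% were lower.

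The comparisons of knockout and of WT with floxed formative cells share the floxed libraries, so a low floxed group enters both. Arid1a stood at 88.3 CPM in formative floxed cells, 151 CPM in knockout and 153 CPM in WT cells, and Crebbp at 61.6, 92.7 and 92.7 CPM. For both genes knockout and WT cells lay close to each other, a difference that was not tested, and the floxed line stood apart. For Med1 the order was 70.8 CPM in floxed, 89.3 CPM in catalytic-dead, 110 CPM in WT and 124 CPM in knockout cells. The members' median was 0.40 for knockout against floxed, -0.25 for floxed against WT and -0.31 for catalytic-dead against WT, beside 0.07, 0.01 and 0.03 over all genes.

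**Figure D3:**
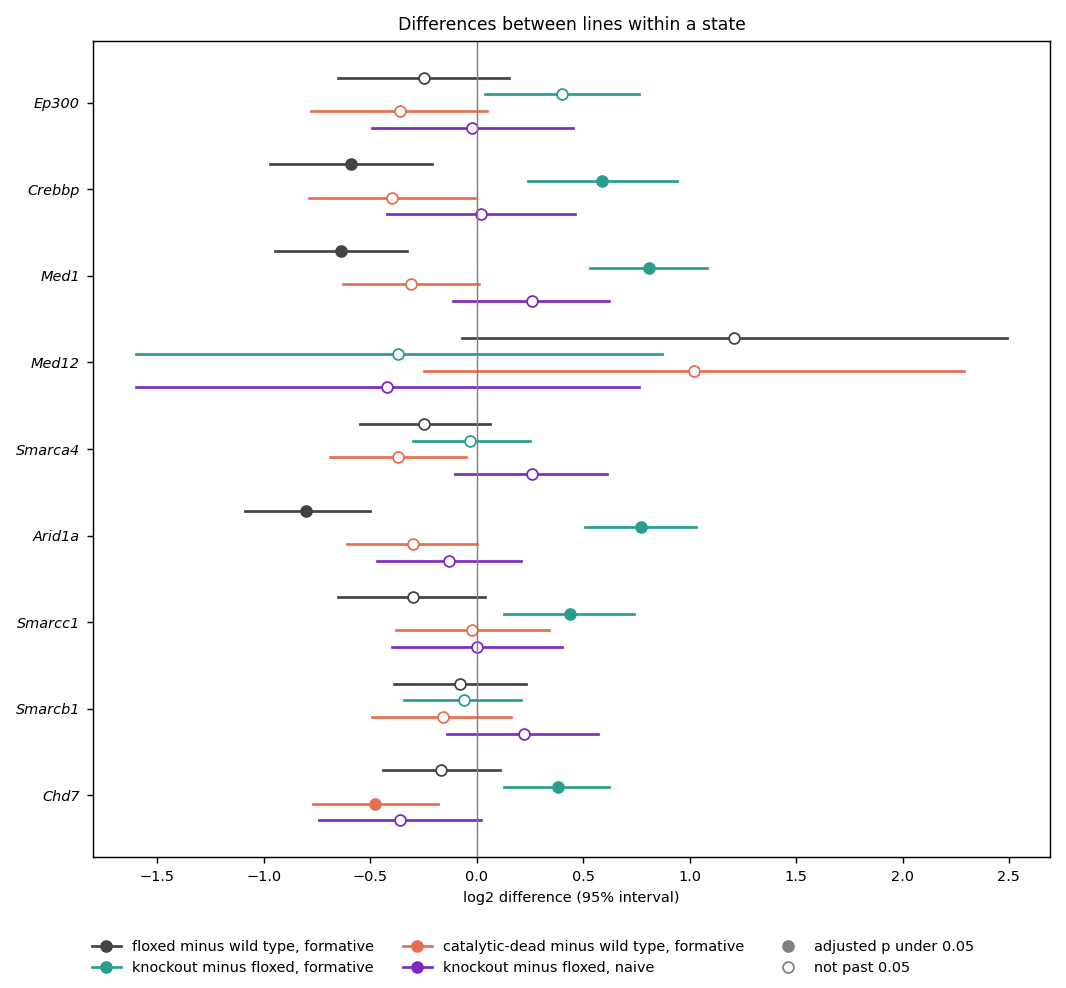
Log2 differences between lines for each member, with 95% intervals, and filled points where the adjusted p is below 0.05. Formative floxed cells lie below WT and below knockout cells for Arid1a, Med1 and Crebbp, and no member passed between knockout and floxed naive cells.

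The catalytic-dead effect (against WT) was also subtracted from the knockout effect (against floxed). These effects are unlike, since the first alters both enzymes in WT cells and the second removes MLL4 alone in cells without MLL3, and the low formative floxed group enters the second. In formative cells 5 of 9 members had a higher difference, Med1 (1.11), Arid1a (1.07), Crebbp (0.99), Chd7 (0.85) and Ep300 (0.76), where 22.2% of all genes passed in either direction and 12.5% were higher. For Med1, Arid1a and Chd7 the formative catalytic-dead average enters both effects, because it stands in for the shared library. In naive cells 0 passed, with 8.17% over all genes and 0 members at an unadjusted limma p under 0.05. The transition of knockout cells exceeded that of floxed cells in 2 members, Arid1a and Chd7, where 12.3% of all genes differed and 7.67% in that direction. The transition of catalytic-dead cells differed from that of WT cells in 0 members, where 5.07% of all genes did, and 3 members had an unadjusted limma p under 0.05. The lowest of these was Ep300 (-0.90, 95% interval -1.6 to -0.2, adjusted p = 0.127).

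Transcript length moved with the comparisons of formative lines. Apart from Smarcb1, the members have long transcripts in GENCODE vM21, from 5773 bases in Smarcc1 to 10820 bases in Crebbp, and Smarcb1 has 1660 bases. Among genes of at least 16 CPM on average, 97.3% of which have a length, the median difference of knockout from floxed formative cells was 0.21 for the 991 genes of 6000 bases or more, and -0.01 for the 1695 genes under 2000 bases. For floxed against WT formative cells these medians were -0.08 and 0.11, and for catalytic-dead against WT they were -0.07 and 0.06. Of the genes of 6000 bases or more, 29.9% were higher in knockout than in floxed formative cells. Arid1a (0.77) and Med1 (0.81) lay above the median of their length class, Smarca4 (-0.03) lay below it, and the part of length in the members' differences was not tested.

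**Figure D4:**
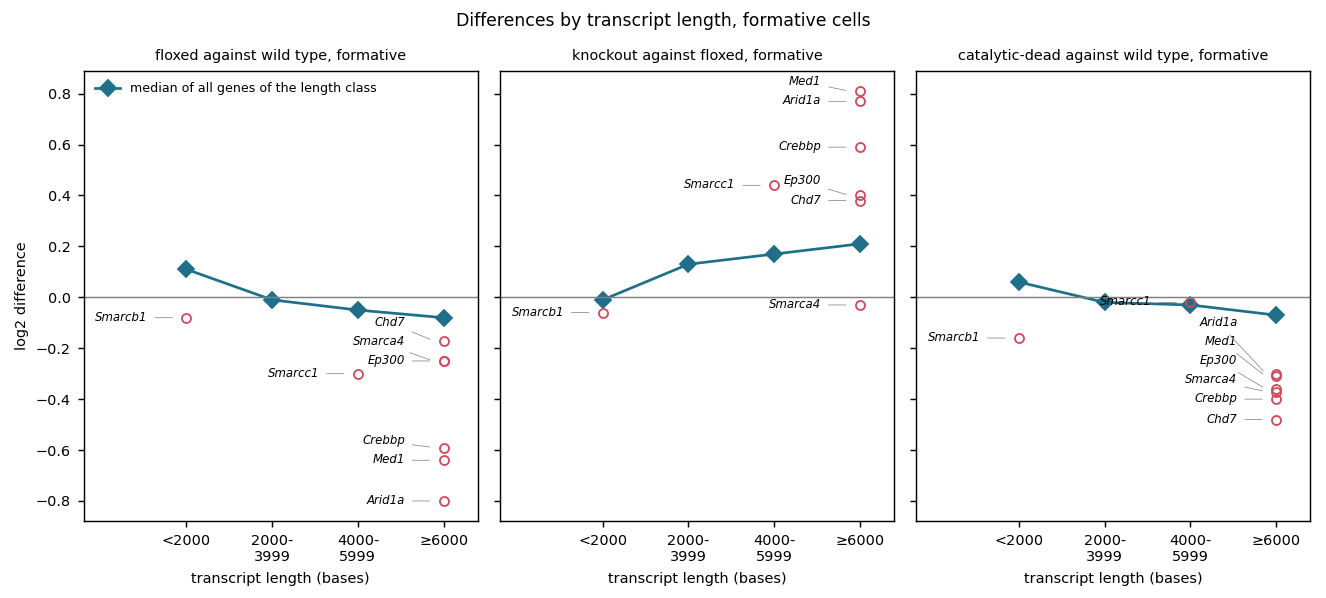
Median log2 difference between formative lines by class of transcript length, with points for single members other than Med12. Medians run from near or below 0 in short transcripts to above 0 in long ones for knockout against floxed, and the other way for floxed against WT.

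Smarca4, Smarcc1 and Arid1a each have a paralog that can take their place in the complex, and the member had the higher counts in every group. Smarca4 counts exceeded those of Smarca2, the alternative ATPase BRM, by 10.4-fold in formative knockout to 27.1-fold in naive WT cells. Smarca2 stood at 7.37 CPM in naive WT and 19.3 CPM in formative knockout cells, rose in the knockout transition (0.68, limma adjusted p = 0.00155) and was higher in knockout than in floxed formative cells (0.51, adjusted p = 0.0362). With the shared library left in, neither passed, at 0.36 (adjusted p = 0.219) and 0.18 (adjusted p = 0.664), and the second was also lost without floxed library b or c or knockout library a or b (0.40 to 0.50, adjusted p = 0.0982 to 0.171). Smarcc1 counts exceeded those of Smarcc2 by 10.5-fold to 18.7-fold. Smarcc2, the second scaffold subunit, was higher in knockout than in floxed formative cells, at 28.2 and 14.9 CPM (0.91, adjusted p = 0.000441).

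Arid1a exceeded Arid1b, the alternative large subunit, by 3.79-fold in formative floxed to 6.27-fold in formative WT cells. Arid1b rose in the knockout transition (0.60, limma adjusted p = 0.00156), from 18.0 to 27.5 CPM. The remodelers closest to CHD7 moved in part like it. Chd9 rose in each line, from 42.5 to 82.3 CPM in WT (0.95, adjusted p = 0.00201) and from 47.4 to 118 CPM in catalytic-dead cells (1.31, adjusted p = 4.67e-07). Chd6 rose in WT cells (0.97, adjusted p = 0.00745), and Chd8 passed in none of the 14 comparisons. Both WT rises were lost without naive WT library b, at 0.65 for Chd9 and 0.55 for Chd6. In formative catalytic-dead cells Chd7 was lower and Chd9 higher (0.52, adjusted p = 0.0237) than in WT cells. Without the second search neither passed (adjusted p = 0.0578 and 0.0584), although neither gene has a value from that search.

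**Figure D5:**
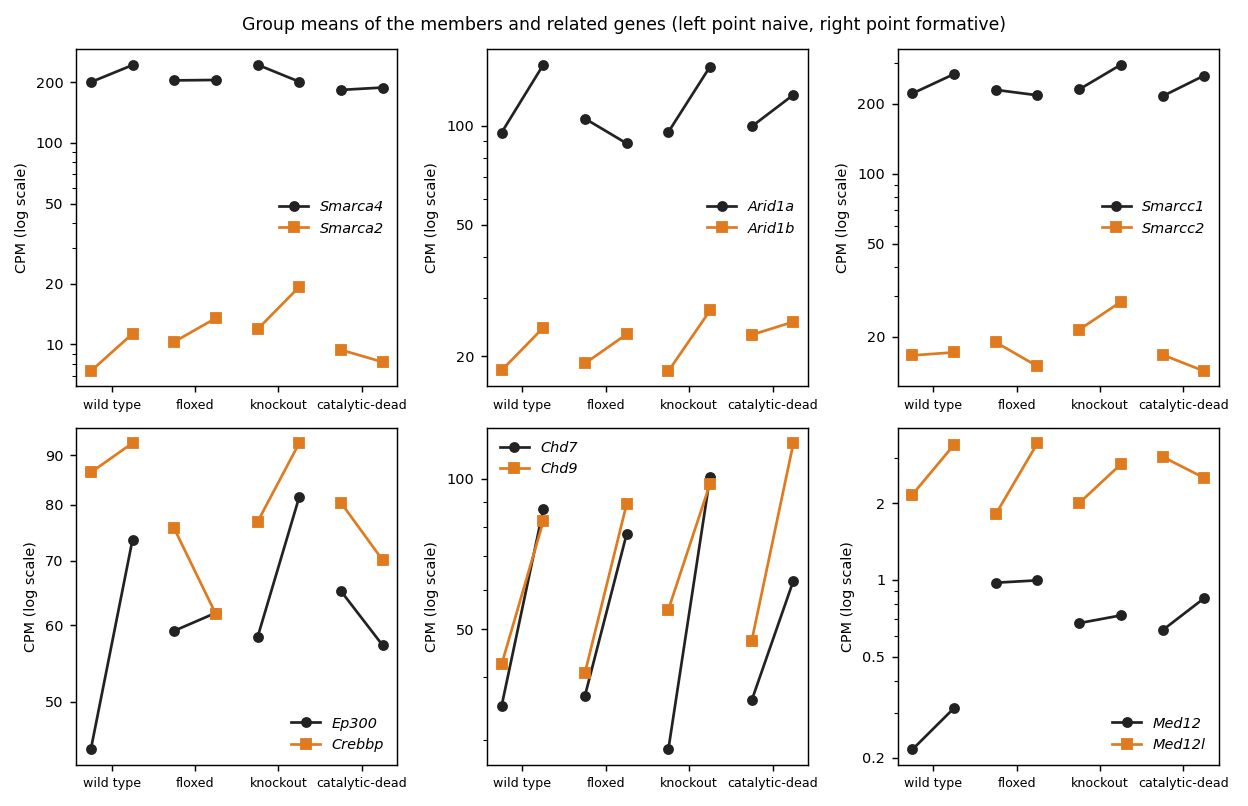
Group averages in CPM, on a log axis, of members and their paralogs in the 8 groups. Smarca4, Arid1a and Smarcc1 lie above their paralogs in every group, whereas Ep300 and Crebbp lie close together.

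The other genes of these complexes were taken from lists of 127 further genes, of which 122 are in the table and 120 were tested. In the knockout transition 40 of them rose and 15 fell, in WT 19 and 12, in floxed 20 and 19, and in catalytic-dead cells 18 and 24. The share that passed was 45.8% in knockout, 25.8% in WT, 32.5% in floxed and 35.0% in catalytic-dead cells, beside 38.5%, 30.8%, 33.3% and 36.3% of all genes. Counts for the single lists below are to be read against the same shares. Between formative knockout and floxed cells 18 were higher and 5 lower, which is 19.2% of those tested beside 25.8% of all genes. Their median there was 0.08, beside 0.40 for the members.

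Among 24 other BAF and PBAF genes, 7 rose and 3 fell in WT, 6 and 2 in floxed, 12 and 4 in knockout, and 5 and 4 in catalytic-dead cells. Bcl11a, a zinc finger subunit, rose in each line, by 4.66 in WT, 3.49 in floxed, 5.56 in knockout and 5.57 in catalytic-dead cells (limma adjusted p at most 3.02e-08), and Bicral, a subunit of the non-canonical form, fell in each (-1.39 in WT to -1.74 in catalytic-dead cells). Bcl11b, the paralog of Bcl11a, rose by 4.88 in WT cells (adjusted p = 1.48e-10) but was already higher in naive knockout than in naive floxed cells, by 3.55 (adjusted p = 3.62e-09). In formative cells 7 of the 24 were higher in knockout than in floxed cells and 0 were lower, where 15.9% of all genes were higher. In floxed against WT formative cells 0 were higher and 1 lower, where 13.9% of all genes passed.

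Among 30 other Mediator genes, 2 rose and 1 fell in WT, 3 and 6 in floxed, 9 and 5 in knockout, and 1 and 7 in catalytic-dead cells. Med14, the backbone of the complex, rose in WT (1.68, limma adjusted p = 6.76e-08), floxed (1.37, adjusted p = 6.71e-07) and catalytic-dead cells (1.12, adjusted p = 2.81e-07). Its transition in knockout cells differed from that in floxed cells by -0.69 (SE 0.22, adjusted p = 0.036). The 2 largest rises in knockout cells were Med31 (1.12) and Med30 (0.96), so no Med14 value is given there. Med18, a head module subunit, fell in floxed (-1.24, adjusted p = 0.000224) and knockout cells (-0.98, adjusted p = 4.94e-05). Only 1 of the 30, Med23, was higher in knockout than in floxed formative cells (0.56, adjusted p = 0.0114), and 1, Med16, was lower (-0.65, adjusted p = 0.000389). Of all genes 25.8% passed there.

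Among 14 other acetyltransferases and nuclear receptor coactivators, 0 rose and 7 fell in WT, 0 and 6 in floxed, 3 and 2 in knockout, and 2 and 8 in catalytic-dead cells. Their median in WT was -0.67, where Ep300 gave 0.72 and Crebbp 0.10. Kat6b, an acetyltransferase of the MYST family, fell in WT (-1.38, limma adjusted p = 0.000116), floxed (-1.49, adjusted p = 3.34e-06) and knockout cells (-0.73, adjusted p = 0.000216). Cited2, which binds p300 and CBP, rose in the knockout transition by 2.51 (adjusted p = 1.48e-10) and was higher in knockout than in floxed formative cells by 2.55 (107 against 18.1 CPM, adjusted p = 4.01e-09). The transition of knockout cells exceeded that of floxed cells in 5 of the 14 and fell short in 0, where 12.3% of all genes differed and 7.67% in that direction.

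Among 9 other CHD genes, 4 rose and 0 fell in WT, 3 and 1 in floxed, 3 and 1 in knockout, and 2 and 0 in catalytic-dead cells. Chd3 rose by 0.85 in WT, 0.94 in knockout and 1.11 in catalytic-dead cells, and also rose in floxed cells (limma adjusted p = 2.36e-05). Their median difference was 0.83 in WT, 0.20 in floxed, 0.29 in knockout and 0.16 in catalytic-dead cells, beside Chd7 at 1.31, 1.07, 1.80 and 0.79.

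The pattern of the members over the 8 group averages was compared with that of 7020 genes of at least 16 CPM, by Pearson correlation, as a description. These correlations, also those between members, use the averages as deposited, with the shared library left in the formative knockout group. Chd7 was nearest to Aldh7a1, an aldehyde dehydrogenase (r = 0.993), and Celf2, an RNA-binding protein gene (r = 0.989). Arid1a was nearest to Gon7 and Brd3 (both r = 0.935), Brd3 encoding a reader of acetylated histones. Ep300 was nearest to Ap1ar (r = 0.965) and Hira, a histone chaperone gene (r = 0.954), Crebbp to Utp20 and Mdn1, both of ribosome assembly (both r = 0.953), and Med1 to Cnot9 (r = 0.954) and Arpc1a (r = 0.953). Smarca4 was nearest to H13 (r = 0.944) and Pmf1 (r = 0.933), Smarcc1 to Bcor (r = 0.944) and Plaa (r = 0.939), Smarcb1 to Ptpa (r = 0.97) and Pdk3 (r = 0.93), and Med12 to Ubald2 (r = 0.974) and Evi5 (r = 0.94). Among pairs of members, Arid1a with Smarcc1 was followed by Crebbp with Med1 (r = 0.78), and the lowest was Crebbp with Med12 (r = -0.74). Ep300 and Crebbp, the paralogous acetyltransferases, gave r = 0.20.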

How the data were processed

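RNA of 24 mouse embryonic stem cell samples (3 per line and state) was sequenced from transcript 3′ ends with the QuantSeq FWD kit, from 200 ng of total RNA and as single-end 50 base reads, per the labels' protocols. Reads were processed with cutadapt 2.5, STAR, featureCounts of Subread 1.6.4, FastQC 0.11.8, MultiQC and DESeq2 1.34.0 on mm10, per the submitters' processing notes. The deposited values are log2 CPM, which the authors averaged per group and gave to 9 decimals; they behave as CPM to which a depth-scaled prior of 2 counts was added. The unit and the averaging were read from the values, and the columns were matched to lines by their codes, CKO being read as the floxed line.

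From these averages, library sizes and whole counts were recovered by integer search (spread between libraries up to 1.0 on the log2 scale, and 0.5 in a second search added after seeing the data, so wider spreads cannot be found). The second search kept a set of counts where up to 1.0 sets were expected to fit by chance, against 0.3 in the first. All 23 libraries matched their own group best over 10306 genes. Their counts were searched around that group's averages and have to reproduce them, so this match is no check of the recovery. The remaining naive WT library is in no column and not analysed here. limma 3.58.1 in R 4.3.3 fitted all 8 groups, weighted by a lowess trend of SD (span 0.3), after a filter of 10 counts at the median library size in 3 libraries. The plan gave no test without recovered libraries. The fit with group means was therefore an addition. Over 185 genes with library values masked, 283 of its 305 calls (92.8%) were also made with the libraries, leaving aside the differences of transitions and of genotype effects. For the differences of genotype effects these were 31 of 35 (formative) and 5 of 7 (naive). For the differences of transitions they were 11 of 11 (knockout minus floxed) and 2 of 2 (catalytic-dead minus WT). The masked genes had values recovered in every group, unlike most members. The code was tested on simulated data for knockout against floxed naive cells, where 1 of 51 calls among 3608 genes without library values fell on unchanged genes. The simulation drew the spread alike in all groups, whereas the median library SD ran from 0.17 in naive knockout to 0.27 in naive floxed cells. No comparison with formative cells was checked, so it gives no rate of false calls for the members' calls. Intervals are 95%.

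Gene positions are from GENCODE vM21 (16606 of 16617 identifiers matched). Members are named always, with their paralogs and, per list and comparison, at most the 2 genes with the largest change in each direction that passed, and for each member the 2 genes most correlated with it. The members and lists were chosen with earlier results of these data known. Alternatives were size factors, no weights, other filters, only the compared groups, each library left out and the formative knockout column as deposited. A further one was the fit with group means without the second search.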

Additional observations from a re-analysis of the deposited data

Results flagged for a closer look

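The formative difference of genotype effects (knockout against floxed, less catalytic-dead against WT) was drawn out by its own test in the limma fit with group means for 5 members: 0.76 for Ep300 (SE 0.27, adjusted p = 0.04), 0.99 for Crebbp (SE 0.25, adjusted p = 0.00597), 1.11 for Med1 (SE 0.20, adjusted p = 0.000674), 1.07 for Arid1a (SE 0.19, adjusted p = 0.000735) and 0.85 for Chd7 (SE 0.18, adjusted p = 0.00197). All 5 transcripts have 6000 bases or more, and over the genes of that class the median of this difference was 0.28, beside -0.09 for genes under 2000 bases; the part of length was not tested. The formative floxed group, the lowest of the 8 for Arid1a (88.3 CPM), Crebbp (61.6 CPM) and Med1 (70.8 CPM), enters each of these differences, and the subtracted effects are unlike: MLL4 alone is lost in one and both enzymes are altered in the other. For Med1, Arid1a and Chd7, 0 of the 4 groups compared have library values. Their formative catalytic-dead average also stands in for the shared library in the knockout average, so it enters both effects. The SEs and p-values leave this out. The Ep300 value did not pass without any of 7 libraries: formative WT a or c, floxed c, knockout a or c and catalytic-dead b or c (0.58 to 0.75, adjusted p = 0.0764 to 0.153). With the shared library left in it was 0.61 (adjusted p = 0.175). It also did not pass without weights (adjusted p = 0.106) or with only the compared groups fitted (adjusted p = 0.0536).

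The difference of transitions, knockout minus floxed, passed its own test for Arid1a (0.90, SE 0.20, limma adjusted p = 0.00662) and Chd7 (0.73, SE 0.22, adjusted p = 0.0289). Arid1a rests on group averages in all 4 groups of this comparison.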

How the results depend on the processing

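With library values of the first search alone 0 members were called in each comparison, but only Med12, and Chd7 among naive cells, could be tested. None of the member calls made with group means could be tested in that fit. With group means the counts were 2 in the WT, 1 in the floxed, 5 in the knockout and 2 in the catalytic-dead transition, 5 for knockout against floxed, 1 for catalytic-dead against WT and 3 for floxed against WT in formative cells, 2 for the difference of transitions (knockout minus floxed) and 5 for the formative difference of genotype effects. Leaving out single libraries gave 0 calls in the planned test throughout. Within the fit with group means, size factors gave 1 in the WT transition, 2 higher and 2 lower in the knockout transition, and 3 for knockout against floxed formative cells. Without weights the knockout transition gave 2, the catalytic-dead transition 1, knockout against floxed 2, catalytic-dead against WT 0, floxed against WT 1 and the difference of transitions 1. Ep300 then passed in the WT transition as well. With the formative knockout column as deposited these were 3 in the knockout transition (2 higher and 1 lower), 3 for knockout against floxed and 1 for the difference of transitions. The fit with group means but without the second search gave 3 for knockout against floxed, 0 for catalytic-dead against WT and 1 for the difference of transitions. In that fit Ep300 also passed in the WT transition. The cause of the changes within the fit with group means was not tested.

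Of 26 calls on members, 13 held in every alternative run and 13 were lost in at least 1, with 0 reversals of sign. Those held were the 4 Chd7 transitions, Arid1a in the knockout transition, knockout against floxed, floxed against WT, difference of transitions and genotype effects, Med1 in knockout against floxed and genotype effects, and Crebbp and Chd7 in genotype effects. Of 100 differences not called, 5 passed in at least 1 alternative. Leaving out a library could not be run for most members for lack of library values, and a prior count of 0.5 needs whole counts. No paired analysis was possible because the columns carry no replicate numbers. Depth limits Med12, at 0 to 23 counts a library.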

Other observations

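Genes of more distant remodeling and enhancer machinery moved in part across all lines. Stag2, a cohesin subunit, rose from naive to formative cells by 1.80 in WT (limma adjusted p = 1.55e-06), 1.97 in floxed (adjusted p = 3.59e-08), 1.06 in knockout (adjusted p = 2.67e-07) and 1.95 in catalytic-dead cells (adjusted p = 9.54e-10). The rise was smaller in knockout than in floxed cells by a difference of -0.91 (adjusted p = 0.00609). Smarca1, the ISWI ATPase SNF2L, rose by 1.52 (floxed) to 2.73 (catalytic-dead), and Cecr2, which forms a complex with ISWI ATPases, rose by 0.46 (floxed) to 1.33 (knockout), while Baz2b fell (-0.67 in WT to -0.86 in floxed cells). Of 16 ISWI, INO80 and SRCAP genes tested, 3 rose and 1 fell in WT cells, 2 and 3 in floxed, 5 and 1 in knockout, and 3 and 3 in catalytic-dead cells. Of 15 BET and cohesin genes, these counts were 1 and 0, 3 and 1, 3 and 2, and 2 and 1.

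Of 15 NuRD genes, 3 rose and 0 fell in WT cells, 4 and 0 in floxed, 6 and 0 in knockout, and 4 and 1 in catalytic-dead cells. Mta1 rose in WT (1.25, limma adjusted p = 0.00181) and knockout cells (1.51, adjusted p = 8.76e-08). Hdac1, the deacetylase of the complex, was higher in floxed than in WT cells by 2.57 in the naive (adjusted p = 5.93e-08) and by 2.05 in the formative state (adjusted p = 2.41e-09), and each is 1 line.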
